A study of Mus musculus with 5 samples.

Results

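The S100 genes encode small calcium-binding proteins, and 8 of them were set apart by gene symbol: S100a1, S100a4, S100a6, S100a8, S100a9, S100a10, S100a11 and S100a13. A gene was measured where probes annotated with its symbol alone gave values on 4 or more of the 5 arrays. On that rule 7 of the 8 genes were measured, among 9727 genes in all, each by 1 probe, so agreement between probes of a gene could not be checked. No probe was annotated with S100a10 alone in the table used here, and it was not analysed.

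The data came from lungs of 5 C3H mice, an inbred strain, given ovalbumin as a sensitiser and then as a challenge (ova mice), the egg-white allergen of mouse models of allergic airway inflammation. Each ova mouse was set against 1 pool of lung RNA from control C3H mice on its own 2-colour array, with amplified RNA in both channels. The labels give neither the number of mice in the pool nor the sex, age, treatment of the controls, days of exposure or dyes. The pool entered every ratio, so the errors reported here hold the variation of ova mice and none of that of controls.

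S100 proteins pair up, bind calcium through EF hands and then expose a surface that holds other proteins, many of them annexins, cytoskeletal proteins or enzymes. S100a8 and S100a9 together form calprotectin, a main protein of the neutrophil cytosol that also signals outside cells through the receptors Ager (RAGE) and Tlr4. S100a4 is found in macrophages, T cells and fibroblast-like cells, S100a6 and S100a11 in epithelium and connective tissue, and S100a1 in heart muscle.

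Values are the deposited log ratios, taken as log2, after each array was centred on its median, and folds hold only if the base is 2, which the sources used here do not state. The numerator is not stated either, so each gene is described as lying below or above 0. Among 7 reference genes that allergic airways are known to induce, 6 passed the test below 0 and none above 0, with Retnla, an alternatively activated macrophage and airway protein, at -4.79 ± 0.30 and the goblet cell gene Clca1 at -4.33 ± 0.40 (SD, n = 5). All 6 measured goblet cell markers passed below 0 (median -2.16). Over all genes, 15% passed below 0 and 12.3% above. Of 11 measured alveolar and airway epithelial markers, 8 passed above 0, among them Sftpc (0.67) and Scgb1a1 (0.70, n = 4), 1 below, the surfactant protein gene Sftpd (-0.47, n = 4), and 2 did not pass, among them Sftpa1 (-0.05). Arrays carried between 11778 and 13320 probe values, and Pearson's r between pairs of arrays over probes was 0.64 to 0.83, with the pool common to all. Mouse 1 stood apart in size: the SD of its ratios over probes was 0.20, against 0.32 to 0.38 in the other mice.

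The S100 genes spread to both sides of 0. Which side is higher in ova mice is not stated, and the reference genes that passed lay below 0. S100a4, S100a8 and S100a9 lay below 0 in every mouse, as did 20.9% of all genes, S100a11 and S100a13 above 0 in every mouse, as did 19.2%, and S100a6 and S100a1 next to 0. In limma's moderated test against 0 with Benjamini-Hochberg adjustment over all genes, 5 of the 7 passed an adjusted p of 0.05, where 27.3% of all genes passed (15% below 0 and 12.3% above 0). The median over the 7 was -0.0028, because opposite values met in it, and over all genes it was 0 by the centring. In whole lung, a different number of cells of a type and a different amount of RNA per cell cannot be told apart.

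**Figure D1:**
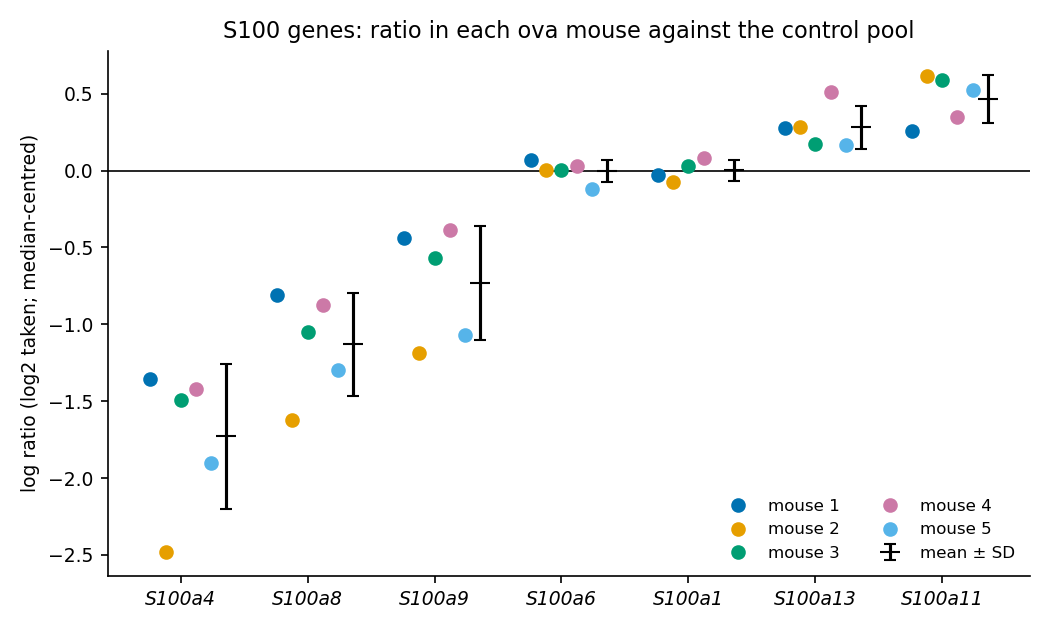
Log ratio (vertical axis, taken as log2, each array centred on its median) of the 7 measured S100 genes in each of the 5 ova mice against the control pool; coloured points are mice, black bars the mean ± SD. S100a4, S100a8 and S100a9 lie below 0 in all 5 mice, and S100a13 and S100a11 above 0 in all 5. S100a6 and S100a1 lie on both sides of 0. The numerator is not stated, so below 0 need not mean lower in ova mice.

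S100a4, known as metastasin or fibroblast-specific protein, had the ratio of largest size in the family. It was -1.35, -2.48, -1.49, -1.42 and -1.90 in mice 1 to 5. Mouse 2 stood lowest, and the other 4 mice lay between -1.90 and -1.35. The mean was -1.73 ± 0.47 (SD, n = 5; 3.32-fold if the base is 2; 95% interval -2.09 to -1.37; limma adjusted p = 0.000656), which put S100a4 at place 29 of 9727 genes counted from the lowest mean. None of its neighbours at 6, 12, 18 or 24 probe IDs, the spacings examined for carry-over between spots, had a stronger ratio; 4 of those 8 neighbours had too few values to tell.

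The stretch of 250 bases before the S100a4 start is shown because S100a4 and S100a8, the 2 members of largest size, share a motif there. It covers chr3:90603520-90603769 on the plus strand of GRCm38.p6 (RefSeq), read 5′ to 3′ toward the gene, with a TATA box, the letters TATAAA, in capitals.
S100a4: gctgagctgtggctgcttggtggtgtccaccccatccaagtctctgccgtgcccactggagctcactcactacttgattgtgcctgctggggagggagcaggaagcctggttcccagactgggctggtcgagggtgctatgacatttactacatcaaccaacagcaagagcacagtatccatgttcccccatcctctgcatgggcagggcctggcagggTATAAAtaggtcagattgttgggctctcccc
The match lies 31 to 26 bases before the annotated start. Of 32851 windows of the same length in the RefSeq table, 12.4% hold these letters on either strand. A match of letters is not a measured binding site. In all, 6 motifs were searched in the windows of 7 members, and a link of any match to the ratios was not tested.

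Markers of cell types that carry S100a4 did not all share its sign. Of 10 measured macrophage and monocyte markers, 7 passed below 0 and none above, where 15% and 12.3% of all genes did. Their median was -0.57, and the complement genes C1qb (-1.99 ± 0.55) and C1qa (-1.64 ± 0.60) were lowest. Fibroblast markers split, with 2 of 8 past the threshold below 0 and 4 above, against the same shares of all genes. The collagen genes Col1a1 (-0.78) and Col3a1 (-0.75) were the negative ones, and the resident fibroblast genes Dpt (0.65), Tcf21 (0.55), Pdgfra (0.35) and Fbln1 (0.34) the positive ones. Of 5 T cell markers 1 passed, Cd2 (-0.54), where 27.3% of all genes passed on either side. Cd3e gave -0.15 (n = 4) and did not pass. The mean over the macrophage list ran from -1.07 to -0.25 across mice, over the fibroblast list from 0.02 to 0.14 and over the T cell list from -0.28 to 0.06; their part in the S100a4 ratio was not tested.

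The calprotectin genes followed in size. S100a8 was -0.81, -1.62, -1.05, -0.88 and -1.30 in mice 1 to 5. Its mean was -1.13 ± 0.33 (n = 5; 2.19-fold if the base is 2; 95% interval -1.39 to -0.87; limma adjusted p = 0.000902), at place 88 from the lowest mean. S100a9 was -0.44, -1.18, -0.57, -0.39 and -1.07. Its mean was -0.73 ± 0.37 (n = 5; 1.66-fold if the base is 2; 95% interval -1.02 to -0.44; limma adjusted p = 0.00519), at place 217. For both genes mice 2 and 5 were the lowest and mice 1 and 4 the highest, and no mouse reached 0.

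S100a8 was further from 0 than its partner in every mouse. The difference, S100a8 minus S100a9, was -0.40 ± 0.11 over 5 mice and ran from -0.49 to -0.23 (exact sign-flip permutation test, two-sided, p = 0.0625, adjusted over 3 pairs 0.0625). That is the smallest p that 5 mice can give, so the design cannot pass 0.05 here. The 2 genes lie on opposite strands of chromosome 3 with S100a7l2 as the next annotated S100 gene beyond S100a9.

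The windows of 250 bases before both starts are given because the products of the 2 genes act as 1 complex. For S100a8 it covers chr3:90668821-90669070 on the plus strand and for S100a9 chr3:90695722-90695971 on the minus strand (GRCm38.p6, RefSeq), both read 5′ to 3′ toward the gene.
S100a8: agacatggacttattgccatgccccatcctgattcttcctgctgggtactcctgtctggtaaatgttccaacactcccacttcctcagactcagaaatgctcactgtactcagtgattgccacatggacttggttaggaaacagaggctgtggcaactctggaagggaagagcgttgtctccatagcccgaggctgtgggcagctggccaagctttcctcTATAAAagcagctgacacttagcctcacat
S100a9: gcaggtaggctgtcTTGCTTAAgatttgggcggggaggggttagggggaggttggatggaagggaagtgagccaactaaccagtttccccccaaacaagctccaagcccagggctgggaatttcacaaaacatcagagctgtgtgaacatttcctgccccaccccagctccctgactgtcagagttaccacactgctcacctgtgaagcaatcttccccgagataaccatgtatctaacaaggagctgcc
Capitals mark TATAAA in S100a8, 30 to 25 bases before its start, and in S100a9 TTGCTTAA, a match to the C/EBP letters TTGCNNAA, 236 to 229 bases before its start. Windows with TTGCNNAA on either strand made up 9.56% of all. S100a9 had no TATAAA in its window.

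Neutrophil markers other than the calprotectin genes had the same sign. Of 10 measured, 7 passed below 0 and none above, with a median of -0.40: the leucine-rich glycoprotein gene Lrg1 had -0.93 ± 0.17, the granule peptide gene Camp -1.17 ± 0.72, the granule enzyme genes Mpo -0.50 (n = 4) and Prtn3 -0.45, and the growth factor receptor gene Csf3r -0.45. Elane, neutrophil elastase, gave -0.05 and did not pass. The mean over the list was -0.18 in mouse 1 and from -0.56 to -0.42 elsewhere. Eosinophil markers gave 3 of 5 past the threshold below 0 and 1 above, where 15% and 12.3% of all genes passed. The ribonuclease gene Rnase2a had -4.23 ± 0.60, far from Alox15 (-0.96) and Ccr3 (-0.39). Prg2 (-0.14) did not pass, and Siglecf (0.30) was the one above 0. The list mean, in which Rnase2a weighs most, ran from -1.41 to -0.72. The part of neutrophils and eosinophils in the S100a8 and S100a9 ratios was not tested.

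The phagocyte NADPH oxidase, the superoxide-making complex that calprotectin assists, was listed with earlier results of these data known. Its share of calls is therefore no independent test. Its measured genes shared the sign of the calprotectin genes. All 4 passed, where 15% of all genes did: the cytosolic subunit gene Ncf4 at -1.37 ± 0.26 (limma adjusted p = 0.000247), the GTPase gene Rac2 at -1.06 ± 0.28 (0.000729), and the membrane subunit genes Cyba at -0.46 ± 0.20 (0.00481) and Cybb at -0.32 ± 0.27 (0.0384). Cybb was -0.04 in mice 1 and 2 and between -0.58 and -0.39 in mice 3 to 5, so the mouse with the most negative S100a8 and S100a9 had a Cybb ratio near 0.

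The single S100a9 probe sits 24 IDs from that of the macrophage metalloelastase gene Mmp12, which had a mean of -2.30. Over all probes not naming the same gene, mean ratios of probes 24 IDs apart correlated with r = 0.107 (9363 pairs), those 6 and 18 apart with 0.155 and 0.108, and those 12 apart with -0.01. With only 1 probe, S100a9 has no value free of this neighbour, whose part in its ratio was not tested. S100a8 and S100a4 had no such stronger neighbour among those with values.

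S100a11, a partner of annexins in membrane repair and keratinocyte growth control, had the highest mean of the 7. It was 0.26, 0.62, 0.59, 0.35 and 0.52 in mice 1 to 5. Its mean was 0.47 ± 0.16 (n = 5; 1.38-fold if the base is 2; 95% interval 0.32 to 0.62; limma adjusted p = 0.00235), at place 247 from the highest mean. S100a13, which takes part in the release of Fgf1 and interleukin-1 alpha from cells, was 0.28, 0.28, 0.17, 0.51 and 0.17. Its mean was 0.28 ± 0.14 (n = 5; 1.22-fold; 95% interval 0.14 to 0.42; limma adjusted p = 0.0117), at place 647. All mice lay above 0 for both genes, mouse 4 highest for S100a13 and mouse 1 lowest for S100a11.

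The S100a11 window is shown because S100a11 had the highest mean of the measured members. It covers chr3:93520246-93520495 on the plus strand (GRCm38.p6, RefSeq), read 5′ to 3′ toward the gene, and capitals mark the motif matches.
S100a11: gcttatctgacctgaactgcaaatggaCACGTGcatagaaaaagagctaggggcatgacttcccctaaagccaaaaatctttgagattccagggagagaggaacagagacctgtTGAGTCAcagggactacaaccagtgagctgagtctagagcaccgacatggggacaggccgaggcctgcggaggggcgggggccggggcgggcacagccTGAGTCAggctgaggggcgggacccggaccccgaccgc
It holds the AP-1 letters TGANTCA at 136 to 130 and at 38 to 32 bases before the start, both as TGAGTCA, and an E-box, CACGTG, at 223 to 218. AP-1 letters occurred in 6.75% and the E-box in 6.02% of all windows, either strand counted. No TATAAA was in it. The windows of S100a1, S100a6 and S100a13 held none of the 6 motifs searched; the other 2 motifs were the STAT letters TTCNNNNGAA, in 5.85% of all windows, and NF-kB, in 3.90%, which matched no S100 window here.

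Annexins are calcium-dependent membrane proteins that S100 dimers tie together. Of 11 measured, 2 passed above 0, 1 below and 8 did not pass, a share close to the 27.3% of all genes that passed, with a median of -0.03 and a range from -0.21 to 0.27. Anxa11, the partner of S100a6, had 0.27 ± 0.11 (limma adjusted p = 0.00806), Anxa3 0.25 ± 0.16 (0.0246) and Anxa4 -0.21 ± 0.13 (0.0292). Anxa2, the partner of S100a10, gave -0.03 ± 0.07 with an interval of -0.14 to 0.08, and Anxa1, the partner of S100a11, -0.13 ± 0.16. Neither passed. S100a11 exceeded Anxa1 in all 5 mice, by 0.60 ± 0.27 (range 0.17 to 0.83; exact sign-flip permutation p = 0.0625, adjusted 0.0625, the smallest possible). The planned comparison of S100a10 with Anxa2 had no S100a10 value.

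S100a6 and S100a1 had ratios next to 0. S100a6, calcyclin, was 0.07, 0.00, 0.00, 0.03 and -0.12 in mice 1 to 5, with a mean of -0.0028 ± 0.07 (n = 5; 95% interval -0.11 to 0.10; limma adjusted p = 0.97). S100a1 was -0.03, -0.08, 0.03 and 0.08 in mice 1 to 4 and blank in mouse 5, with a mean of 0.0015 ± 0.07 (n = 4; 95% interval -0.12 to 0.13; adjusted p = 0.986). Their mice fell on both sides of 0, and the intervals leave ratios of up to about 0.1 in size. Heart muscle markers, the tissue S100a1 is best known from, lay partly above 0. Of 10 measured, 5 passed there, where 12.3% of all genes did, and none below. Those that passed included Cox8b at 1.12 ± 0.34 and the atrial myosin light chain gene Myl7 at 0.68 ± 0.31. The other 5 did not pass: Actc1 (0.40) and Tnni3 (0.21) above 0, and Myh6 (-0.07), Ckm (-0.09, n = 4) and Mb (-0.05) below. List means ran from -0.05 in mouse 1 to 0.53.

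S100a6 and S100a4 are near neighbours on chromosome 3 and differed in every mouse. S100a6 minus S100a4 was 1.73 ± 0.45 over 5 mice and ran from 1.42 to 2.48 (exact sign-flip permutation p = 0.0625, adjusted 0.0625, the smallest possible). Set in order of mean ratio over these same mice, S100a8 exceeded S100a4 in 5 of 5 mice (0.60 ± 0.16) and S100a9 exceeded S100a8 in 5. S100a6 exceeded S100a9 in 5 (0.73 ± 0.33), and S100a13 exceeded S100a1 in 4 of 4 (0.31 ± 0.12). The order was taken from these values, so the counts are no test of it. S100a1 and S100a6 did not differ beyond their spread (-0.02 ± 0.08, 2 of 4 mice), nor did S100a11 and S100a13 (0.19 ± 0.26, 3 of 5 mice).

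**Figure D2:**
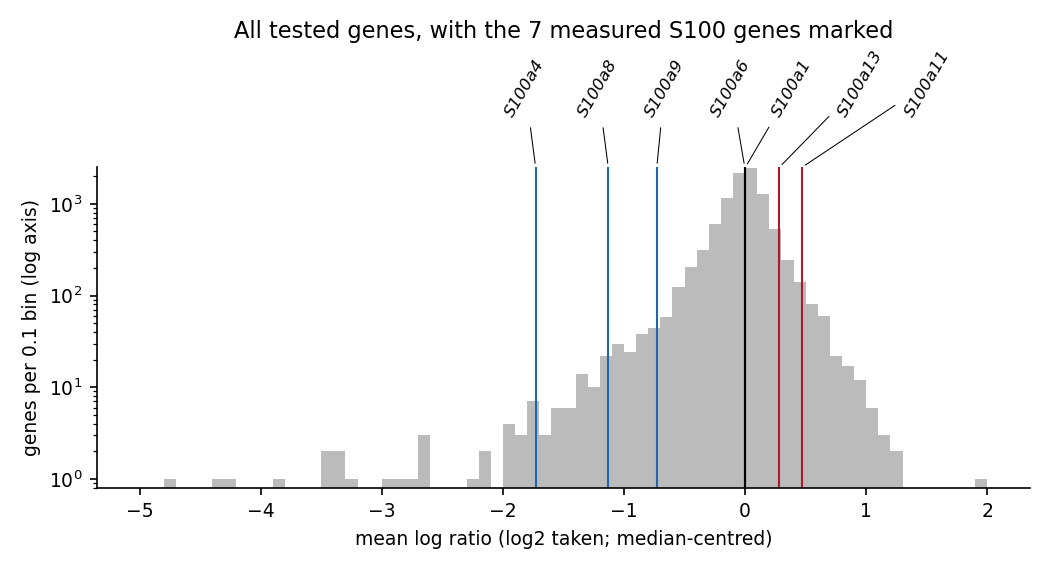
Number of genes (vertical axis, logarithmic) by mean log ratio over the ova mice (horizontal axis, taken as log2) for all 9727 tested genes; vertical lines mark the 7 measured S100 genes, blue and red past an adjusted p of 0.05, black not. S100a4 at -1.73 lies in the sparse negative tail and S100a6 and S100a1 at the peak.

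In mouse 1, the array of smallest ratios, S100 genes kept different shares of their ratio in the other mice. Over 755 genes past the threshold with a mean beyond 0.5 in size in mice 2 to 5, mouse 1 had a median share of 0.453 of that mean. Those genes were picked in part by that same mean, which can lower their share. The median is thus no neutral yardstick for single genes. The share was, for S100a4, 0.742, for S100a8 0.667, for S100a9 0.55, and for S100a11 0.498. S100a13, whose mean lies under 0.5 and so outside those 755 genes, had a share of 0.977. Without mouse 1, S100a4 had a mean of -1.82, S100a8 -1.21 and S100a9 -0.80.

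Among the S100 genes outside the set of 8, 5 were measured and 2 passed, both above 0, where 12.3% of all genes did. S100g, the vitamin D dependent calbindin-D9k of calcium-transporting epithelia, was 0.29, 0.72, 0.86, 0.97 and 1.20 in mice 1 to 5, with a mean of 0.81 ± 0.34 (n = 5; limma adjusted p = 0.00265), at place 41 from the highest mean. Its ratio in mouse 1 was 0.310 of the mean of the others. The single S100g probe lies 6 IDs from that of Srsf1 (-1.01) and 12 from that of Eepd1 (-1.98), both larger in size and below 0, and their part in the S100g ratio was not tested. S100g did not pass against a minimum size of 0.5 (limma's treat, adjusted p = 0.606). S100a16 had 0.29 ± 0.20 (limma adjusted p = 0.0244) and lost the call when mouse 1, 2, 3 or 5 was left out, with adjusted p between 0.056 and 0.0714. S100a16 did not pass against the minimum size of 0.5 either. S100a14, an epithelial member, gave -0.16 ± 0.12 (0.0693), and S100a3 and S100a5 gave -0.13 ± 0.12 (0.127) and -0.11 ± 0.08 (0.108). These 3 did not pass. S100a14 passed without mouse 1, at -0.20 with a limma adjusted p of 0.0364. Of the fused S100 genes of the skin barrier, Flg (filaggrin) passed at -0.57 ± 0.17 and Tchhl1 gave -0.06; 9 other S100 and fused genes of the list were not tested.

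Genes were measured for receptors that S100 proteins signal through and for their adaptors. Of these 5, 3 passed above 0, where 12.3% of all genes did, and none passed below. Ager, the receptor RAGE and an alveolar type 1 cell gene, was 0.27, 1.36, 0.37, 0.19 and 1.12, with a mean of 0.66 ± 0.54 (n = 5; limma adjusted p = 0.0281). Mice 2 and 5 were highest for Ager, the mice in which S100a8 and S100a9 were most negative. That is not particular to Ager: the same mice were furthest from 0 for Arg1 (-4.89 and -4.65) and Sftpc (1.08 and 1.03). They were not so for Cd36 or Bsg. The scavenger receptor gene Cd36 had 0.41 ± 0.17 (0.0047) and Bsg, basigin, 0.41 ± 0.19 (0.00572), while the adaptor gene Traf6 gave 0.02 and the kinase gene Irak1 -0.34 ± 0.32 (0.0504), with mouse 4 at -0.91; neither passed. Tlr4, Ly96, Cd14, Myd88 and Irak4 were not among the tested genes. The list of alveolar and airway epithelial markers, Ager among them, had means from 0.16 to 0.66 over mice, and their part in the Ager and S100a11 ratios was not tested.

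**Figure D3:**
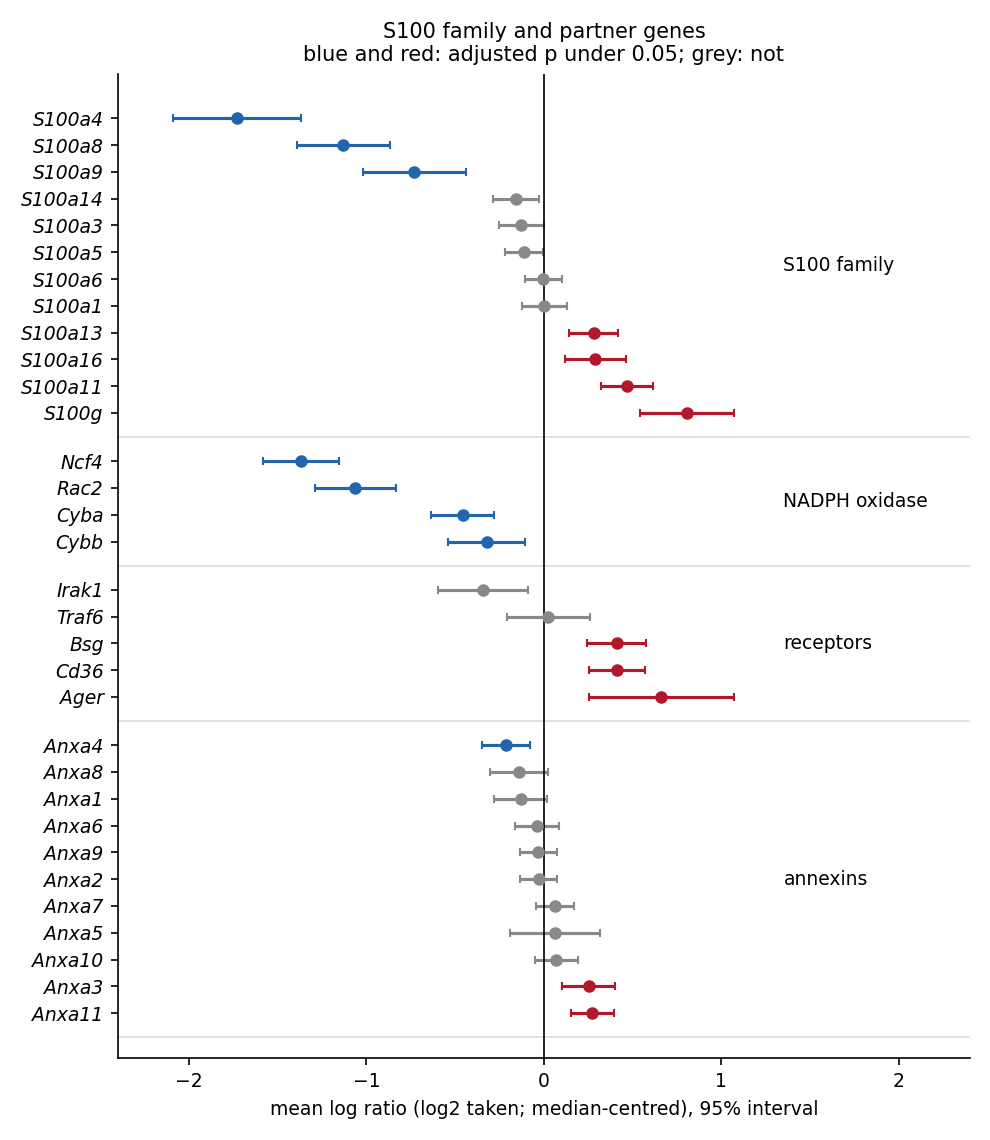
Mean log ratio (horizontal axis, taken as log2) with the 95% interval of limma's fit for 12 S100 genes and for measured NADPH oxidase, receptor and annexin genes; blue and red mark an adjusted p under 0.05 below and above 0, grey the rest. The 4 oxidase genes lie with S100a4, S100a8 and S100a9 below 0, Ager, Cd36 and Bsg above 0, and 8 of 11 annexins are grey; some grey intervals leave out 0 because they are not adjusted over genes.

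Of 17 other measured binding partners of S100 proteins, 2 passed below 0, 3 above and 12 did not pass, with a median of -0.01; the share that passed was close to the 27.3% of all genes. Capzb, a subunit gene of the actin-capping protein, had -0.38 ± 0.15 and the p53 ligase gene Mdm2 -0.32 ± 0.17. Ppfibp1, liprin beta 1 and a partner of S100a4, had 0.32 ± 0.11, Plat, tissue plasminogen activator, 0.30 ± 0.20, and Ryr2, the calcium release channel that S100a1 binds, 0.23 ± 0.08. Ahnak, which binds the S100a10 and annexin A2 complex, gave -0.10 ± 0.15, and interleukin-1 alpha, Il1a, 0.01 ± 0.17; neither passed.

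EF-hand genes outside the S100 family lay to both sides as well. Of 24 measured, 5 passed below 0 (15% of all genes did), 6 above (12.3% of all genes) and 13 did not, with a median of -0.0029. The leukocyte EF-hand gene Efhd2 (-0.67 ± 0.09), the calmodulin gene Calm3 (-0.54 ± 0.12), the calpain gene Capn2 (-0.31 ± 0.11) and the leukocyte plastin gene Lcp1 (-0.43 ± 0.26) were negative. The troponin C genes of striated muscle, Tnnc1 (0.64 ± 0.30) and Tnnc2 (0.66 ± 0.36, both n = 4), the neurocalcin gene Ncald (0.38 ± 0.22) and the alpha-actinin gene Actn4 (0.20 ± 0.07) were positive.

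All 8 genes of the set lie on chromosome 3, in the stretch that also holds the skin barrier genes of the epidermal differentiation complex. In the RefSeq gene order S100a1 and S100a13 come first and start 105 bases apart on opposite strands, so that their windows before the start share 104 bases; S100a1 was at 0 and S100a13 above it. S100a14, S100a16, S100a3, S100a2, S100a4, S100a5, S100a6, S100a7a, S100a8 and S100a9 follow, and S100a11 and S100a10 lie at the far end. Of 11 measured S100 genes in this stretch 3 passed below 0 and 3 above, where 15% and 12.3% of all genes did. S100a4 (-1.73) stood between S100a3 (-0.13) and S100a5 (-0.11), neither of which passed. Among 27 other measured genes between the outermost members or within 15 genes of them, 6 passed below 0 and 4 above. Their median was -0.0046, and the shares of all genes are those just given. The small proline-rich protein gene Sprr2a1, a cornified envelope gene with near-identical copies that its probe may not separate, had the lowest value at -1.32 ± 0.64, and the keratinocyte gene Kprp the highest at 0.53 ± 0.15.

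**Figure D4:**
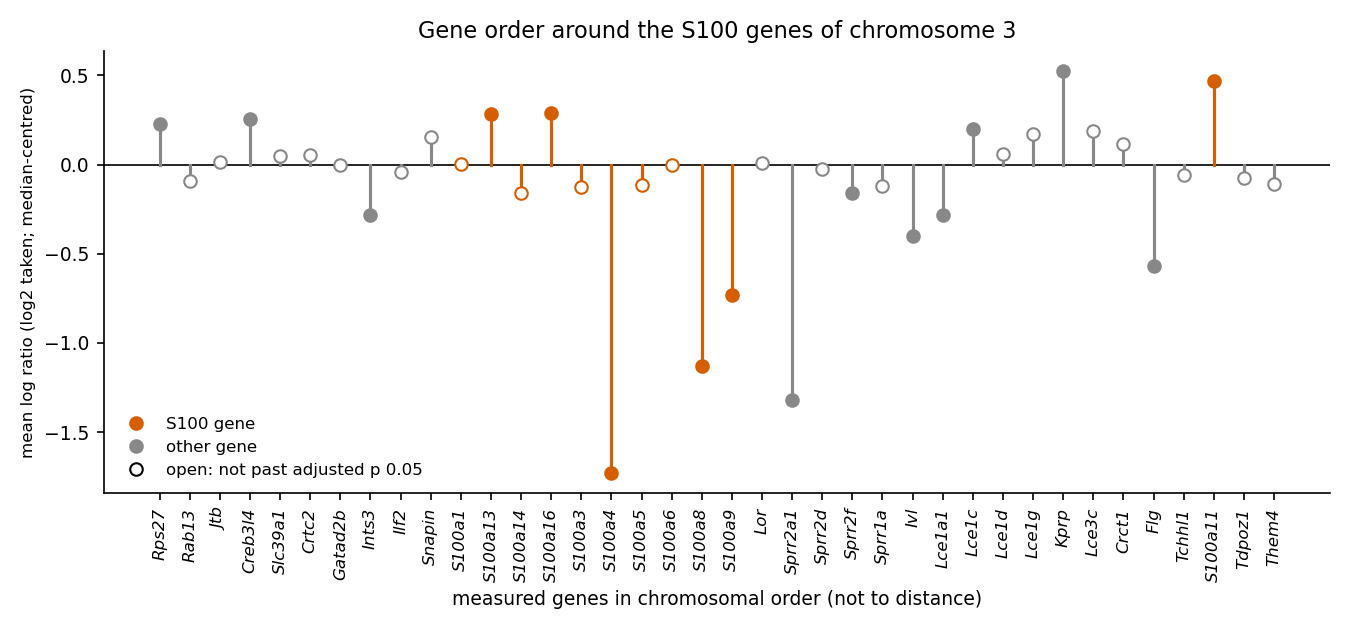
Mean log ratio (vertical axis, taken as log2) of measured genes in RefSeq order along chromosome 3 (horizontal axis, order only); orange marks S100 genes, grey other genes, filled points an adjusted p under 0.05. S100a4, S100a8 and S100a9 drop below -0.7 with S100 genes at or near 0 between them, and S100a11 lies apart at 0.47.

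The genes with ratios most like a member's were found by the root mean square difference over the mice in which the member was measured, among 8036 genes for members with 5 values. For S100a4 they were Ly86, the MD-1 lymphocyte antigen (-1.77, difference 0.223), Knstrn, a spindle gene (-1.60, 0.231), and Reep2 (-1.81, 0.306), and no gene came within 0.2. For S100a8 they were the macrophage gene Aif1 (-1.20, 0.155), the folate enzyme gene Mthfd2 (-1.13, 0.165) and Ms4a6d (-1.11, 0.172), and 4 genes came within 0.2. S100a9 was nearest to the interleukin-10 receptor gene Il10ra (-0.78, 0.123), the kinetochore gene Cenpf (-0.68, 0.129) and the leukotriene C4 synthase gene Ltc4s (-0.68, 0.134), with 13 genes within 0.2. S100a11 was nearest to Hoxd8 (0.50, 0.051), the oxidase gene Nox4 (0.42, 0.0656) and the glutathione transferase gene Gstt1 (0.52, 0.0694), with 267 genes within 0.2, and S100a13 to Ccdc112, Scaf8 and Gabarap (0.0673 to 0.0758), with 736. Around S100a6, nearest to Slco1a6 (0.0182), 4317 genes came within 0.2, and around S100a1, nearest to Gpr37l1 (0.0134), 4596 of 8289, so likeness there picks out no particular gene.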

How the data were processed

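Lung RNA of 5 ova mice was compared with 1 control pool on 2-colour arrays. The authors' deposited table holds 1 log ratio per probe and array, read as log2; scanner, dyes, background correction, normalization, log base and numerator are not given in these sources. Base 10 would need sizes beyond a 16-bit scanner (4.82, against 5.168 in the table). Spot brightness was not used here, and the number of arrays limits the precision.

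Of 17280 probes, 14722 carried 1 gene symbol in the platform annotation, 1 several and 2557 none; 14445 matched the GRCm38.p6 gene table by identifier, which changed 0 symbols. Arrays were median-centred, probes averaged per gene, and genes with values on at least 4 arrays tested against 0 with limma 3.58.1 in R 4.3.3 (intercept, eBayes, two-sided, Benjamini-Hochberg, threshold 0.05), checked on simulated data. The labels number separate mice. Alternatives covered centring, scaling, probe choice, missing values, variance model, a minimum size and leaving out each mouse. All members are named, as are up to 4 genes of smallest p per partner list and side, known direct partners, and the 3 genes most like each member. Other markers and neighbouring genes named were chosen after their values were seen. Members and lists (receptors, annexins, NADPH oxidase, other partners, other S100, other EF-hand genes, reference response genes and markers of 8 cell types) were chosen with earlier results of these data known. Promoter windows came from RefSeq by symbol, for 7 of 8 members.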

Additional observations from a re-analysis of the deposited data

Results flagged for a closer look

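Of 82 S100, partner and reference genes examined for a mouse far from the other 4 (Dixon's test at 95%), 4 had one, about what chance gives at 1 in 20; none of the 12 measured S100 genes was among them. Mouse 4 stood apart for Irak1 at -0.91, for Cd36 at 0.12 and for Nucb2 at 0.31, and mouse 3 for Ttn at 0.24.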

How the results depend on the processing

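S100a4 and S100a8 kept their side and their call in all 16 alternatives, with means from -1.82 to -1.54 and from -1.21 to -1.01. S100a9 (-0.82 to -0.62), S100a11 (0.43 to 0.52) and S100a13 (0.22 to 0.31) kept theirs in all except the test against a minimum size of 0.5, where their means of -0.73, 0.47 and 0.28 had an adjusted p of 1 in limma's treat. That test passed 69 genes, 63 below 0 and 6 above, among them 2 members below 0 and 0 above. Without probes near a stronger one, S100a9 had no value and 2 members passed below 0. A stronger probe there had to exceed 1 in size. For S100a13 only the neighbour Akt1 (-0.06) had a value, so that alternative hardly examined it. S100a11 has Lrg1 (-0.93) at 18 IDs, larger in size than S100a11 but under that limit. S100a1, never past the threshold, was -0.00080 without centring, -0.0101 with quantile normalization and -0.0087 with arrays scaled to one spread, and -0.026 to 0.0273 with 1 mouse left out. S100a6, never past it either, was 0.0077 with quantile normalization and 0.0070 with scaled arrays, and -0.021 to 0.0263 with 1 mouse left out. With a mouse left out, 1599 (mouse 5) to 2553 (mouse 1) genes passed, 928 to 1429 below 0 and 671 to 1124 above 0, in part because fewer arrays were tested, and each time 3 members passed below 0 and 2 above. The median of all genes moved by at most 0.0030 under any alternative, and the share of calls below 0 from 55.1% to between 54.0% and 58.4%, or 91.3% against the minimum size. No paired analysis was possible because the series has 1 group. Each member rests on 1 probe, brightness over background is unknown, and 5 arrays cannot carry a single-gene permutation test past 0.05.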
